A study of Mus musculus with 19 samples.

Results

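The binding sites of YAP and of TEAD in mouse liver were set against each other after 7 days of YAP induction, with the 2 peak lists that chromatin immunoprecipitation followed by sequencing (ChIP-seq) gave at that time. The members were all peaks of these 2 lists, 1478 for YAP and 38984 for TEAD, which are 40462 of the 82869 peaks in the 6 lists of the series. A YAP peak and a TEAD peak were paired when they overlapped by at least 1 bp, which gave 1416 pairs. Each list stands for a merged group of livers, 3 YAP libraries and 4 TEAD libraries of the 19 samples, so no value below has a spread between replicates and no difference between conditions was tested.

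Both groups were C57BL/6 mice of the genotype ROSA26-rtTA-IRES-EGFP with the tetYAP transgene, fed doxycycline food for 7 days. The transgene encodes an activated form of YAP, and per the study's methods the mice carried a Cre recombinase driven by the albumin gene, which is active in hepatocytes. Libraries from induced livers at 3 days, and from livers of mice without tetYAP (WT) that also ate doxycycline food for 7 days, were used only where named. Whole liver was immunoprecipitated, so hepatocyte chromatin and that of other liver cells cannot be told apart, and with no expression data here the labelled tissue was not checked against markers. The YAP and TEAD tissue differed in more than the antibody. A protein-protein crosslinker preceded formaldehyde for YAP, and formaldehyde alone was used for TEAD, whose antibody was raised to TEAD4 and is described in the methods as also binding TEAD1 and TEAD3. The merged libraries were of like depth, with 34260362 tags for YAP and 38523843 for TEAD.

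YAP is a coactivator with no DNA-binding domain, and the Hippo kinases keep it out of the nucleus by phosphorylation. The TEAD proteins are its main DNA-binding partners, and they recognise a short element whose core reads GGAATG, or CATTCC on the other strand. In the liver, active YAP drives hepatocyte growth and loss of the mature state.

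The sequences below are 81 bases centred on the TEAD summit, the base of highest coverage in a peak, on the plus strand of mm9, and were read from the genome. They are shown because they are among the 5 pairs with the highest YAP pileup or the 5 with the highest TEAD pileup, or lie at the promoter of a Hippo pathway gene or target. The 3 pairs with the highest YAP pileup have a low fold enrichment and no core in these 81 bases, and the first of them is printed further on. Every window printed here holds a core, but not every paired window does: those at F3 and Vgll4, for example, hold none. Capitals mark every copy of the TEAD core on either strand. Promoter labels follow the overlap of the whole peak, and the Tlcd2 summit itself lies in an intron, 1474 bp downstream of the start.
Gm20388 intron, chr8:124758157-124758237: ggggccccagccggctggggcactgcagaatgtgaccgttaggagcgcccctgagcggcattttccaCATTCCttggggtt
Tspan4 promoter, chr7:148662506-148662586: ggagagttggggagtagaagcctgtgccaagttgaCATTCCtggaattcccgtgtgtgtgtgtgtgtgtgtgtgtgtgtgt
Alb upstream site, chr5:90879174-90879254: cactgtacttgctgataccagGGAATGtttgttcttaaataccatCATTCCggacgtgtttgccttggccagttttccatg
Tlcd2 promoter, chr11:75276651-75276731: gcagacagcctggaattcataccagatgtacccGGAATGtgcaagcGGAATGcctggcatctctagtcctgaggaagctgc
Ctgf promoter, chr10:24315150-24315230: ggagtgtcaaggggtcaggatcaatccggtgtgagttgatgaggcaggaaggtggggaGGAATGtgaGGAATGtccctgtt
Wwtr1 promoter, chr3:57380085-57380165: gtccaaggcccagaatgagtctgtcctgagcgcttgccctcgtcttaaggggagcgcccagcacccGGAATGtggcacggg

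Nearly all YAP peaks lay on TEAD peaks, and few TEAD peaks lay under YAP peaks. Of the 1478 YAP peaks, 1407 overlapped TEAD (95.2%, 95% Wilson interval 94.0 to 96.2), and of the 38984 TEAD peaks 1395 overlapped YAP (3.58%, 3.40 to 3.77). Intervals here and below cover counting error over peaks, pairs or genes only. The pairing was close to 1 to 1: 1399 YAP peaks overlapped 1 TEAD peak and 8 overlapped several, and 1379 TEAD peaks overlapped 1 YAP peak and 16 overlapped several. In 1311 of 1416 pairs (92.6%, 91.1 to 93.8) the YAP peak lay wholly inside the TEAD peak. The TEAD peaks of the pairs had a median length of 722 bp (710 to 736), against 365 bp (363 to 367) for TEAD peaks without YAP, and the YAP peaks of the pairs had one of 335 bp (328 to 341). The caller extended YAP reads to 250 bp and TEAD reads to 206 bp, and the part of these settings in the lengths was not tested.

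A small set of places behaved differently. YAP-dense domains were defined from the WT livers, as stretches of at least 5 YAP peaks with no gap over 50 kb, and they numbered 5. They held 109 of the YAP peaks at 7 days, of which 82 lay in a stretch of chromosome 1, chr1:90108498-90207542, within 20 kb of the starts of Trpm8 and Hjurp. Inside the domains 51 of 109 YAP peaks were paired (46.8%, 37.7 to 56.1), and outside them 1356 of 1369 (99.1%, 98.4 to 99.4). Because these domains held YAP peaks in livers without the transgene, values are given with and without them where they changed. Of the 1356 paired YAP peaks outside the domains, 7 overlapped a YAP peak of WT livers and 13 overlapped a YAP peak of livers induced for 3 days. Those lists held only 156 and 110 YAP peaks in all, which limits both counts, and a site without a called peak is not shown to lack YAP.

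The summits of paired peaks lay close to each other. The median distance between a YAP summit and its TEAD summit was 34.0 bp (31 to 37.0, n = 1416), with quartiles at 15.0 and 67.2 bp. The summits lay within 50 bp of each other in 65.3% of pairs (62.7 to 67.7), within 100 bp in 86.4% (84.5 to 88.1) and within 200 bp in 95.1% (93.9 to 96.1). They fell on the same base in 12 pairs. The median distance was 37.0 bp at promoters (31 to 44.0, n = 278), 34.0 bp in gene bodies (29.0 to 36.0, n = 595) and 33.5 bp in intergenic sequence (30.0 to 39.0, n = 542), so the 3 kinds of location did not differ beyond their intervals.

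**Figure D1:**
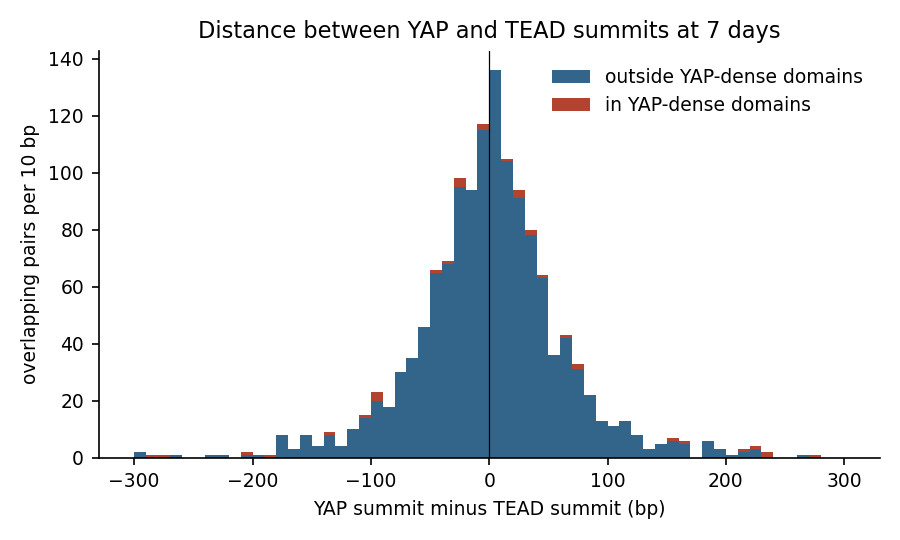
Number of overlapping pairs (vertical axis, per 10 bp) against the signed distance from the TEAD summit to the YAP summit in bp (horizontal axis), with pairs in YAP-dense domains in red; 48 of 1416 pairs lie beyond 300 bp and are not drawn. The distances centre on 0, with a median of 1.0 bp.

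The side did not differ beyond counting error. The YAP summit had the higher coordinate in 717 of the 1404 pairs with different summits (51.1%, 48.5 to 53.7). Read along the nearest coding gene, the YAP summit of promoter pairs lay a median of 1.0 bp downstream of the TEAD summit (-10.0 to 9.0, n = 278). The distance was shorter where YAP pileup, the number of fragments over the summit, was highest. Outside the domains the median was 47.0 bp (40 to 52.0, n = 418) for YAP peaks with a pileup of 18 to 25 and 23.0 bp (20 to 26.0, n = 303) for those of 36 to 351. Summits were over 500 bp apart in 28 pairs, of which 18 lay in the domains, where the median distance was 236 bp (131 to 328, n = 58).

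Pairs with more YAP tended to have more TEAD. The median pileup of the pairs was 28.0 fragments for YAP (28.0 to 29.0) and 135 for TEAD (131 to 139), and the median fold enrichment over the local background was 5.89 for YAP and 29.9 for TEAD. Scaled to library size, TEAD pileup was the higher of the pair in 1372 of 1416 pairs. Spearman's rank correlation of the pileups was 0.43 over all pairs (0.38 to 0.47, n = 1416) and 0.50 outside the domains (0.46 to 0.54, n = 1358). Inside the domains it was 0.61 (0.40 to 0.76, n = 58). The correlation is a description across sites, which share the same 2 merged libraries, control library and local mappability. Outside the domains the median TEAD pileup was 112 (108 to 115), 128 (122 to 134), 144 (136 to 153) and 205 (193 to 214) for YAP pileups of 18 to 25, 26 to 29, 30 to 35 and 36 to 351.

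**Figure D2:**
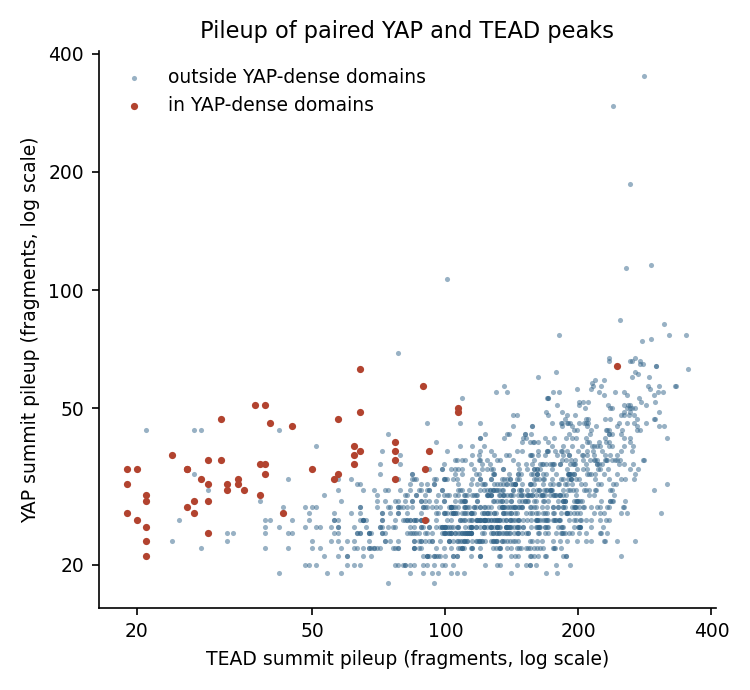
YAP summit pileup (vertical axis) against TEAD summit pileup (horizontal axis) for the 1416 pairs, in fragments on log scales, with pairs in YAP-dense domains in red. YAP pileup is higher where TEAD pileup is higher, and most red points lie to the left of the others, with TEAD pileups below the median of 135.

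The correlation was of like size at promoters (0.52, 0.42 to 0.61, n = 251), in gene bodies (0.51, 0.44 to 0.57, n = 569) and in intergenic sequence (0.48, 0.41 to 0.55, n = 538), all outside the domains. It was 0.54 (0.49 to 0.58, n = 910) where the summits lay within 50 bp and 0.37 (0.29 to 0.45, n = 448) where they lay farther apart. Outside the domains, 49 of the 100 YAP peaks with the highest pileup were paired with a TEAD peak among the 100 highest of its own list, and 248 of the highest 500 with one among the highest 500. For scale, 1356 YAP peaks of any pileup were paired outside the domains. With YAP peaks of any pileup, 84 of the 100 highest TEAD peaks were paired, and 359 of the 499 outside the domains among the highest 500. Both sets include unpaired mitochondrial peaks of low fold, given below.

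The pairs with the highest pileups fell into 2 kinds. Of the 5 with the highest YAP pileup, 3 had a fold enrichment under 2 for YAP. The site in the predicted gene Gm10801 on chromosome 2 had a YAP pileup of 351 with a fold enrichment of 1.6 and a TEAD pileup of 281 with a fold of 1.59. The neighbouring site in Gm10800 had a YAP pileup of 294 and a fold of 1.99, and that at Sfi1, which encodes a centrosomal protein, had a YAP pileup of 186 and a fold of 1.8. The TEAD folds there were 1.62 and 2.69. The Gm10801 window, shown to contrast with the sequences above, holds no TEAD core.
Gm10801 intron, chr2:98502742-98502822: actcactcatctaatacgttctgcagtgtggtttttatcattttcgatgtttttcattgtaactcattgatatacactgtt

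The other pairs at the top were enriched in both lists. In an intron of Gm20388 on chromosome 8, YAP had a pileup of 116 and a fold of 25.33, TEAD a pileup of 292 and a fold of 68.81, and the summits lay 9 bp apart. At the promoter of Tspan4, which encodes a tetraspanin membrane protein, YAP had a pileup of 114 and a fold of 24.89, TEAD a pileup of 256 and a fold of 60.32, and the summits lay 10 bp apart. Both windows hold 1 TEAD core. The 5 pairs with the highest TEAD pileup, from 321 to 354, were near Plcb1, Alb, Gsta3, Tlcd2 and Exph5, with YAP pileups between 57 and 77 and folds between 9.58 and 13.9. Their summits lay 2 to 47 bp apart.

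Of these, the Alb site is in intergenic sequence 10701 bp upstream of the start of Alb, the serum albumin gene that hepatocytes express at very high levels. It had a TEAD pileup of 350 and a YAP pileup of 77, with summits 2 bp apart. The Gsta3 site lay in an intron of that gene, which encodes a glutathione transferase, with a TEAD pileup of 332 and a YAP pileup of 57. The Plcb1 site, with the highest TEAD pileup of all pairs, lay in an intron of a phospholipase C gene and had a YAP pileup of 63.

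When both pileups were ranked among the 1416 pairs, the ranks disagreed most at the following. YAP ranked far above TEAD at 3 pairs in the chromosome 1 domain near Heatr7b1, with YAP pileups of 47 or 51 and TEAD pileups of 31 to 39. Outside the domains the 3 such pairs all involved 1 long YAP peak beside the promoters of Coil and Gm15698 on chromosome 11, with a YAP pileup of 44 over TEAD pileups of 21 to 28. TEAD ranked far above YAP at a site 12885 bp upstream of Egfr, the epidermal growth factor receptor gene, where TEAD had a pileup of 250 and YAP one of 21. The other 2 lay far from the nearest coding start. One was 98560 bp upstream of Galntl2, with 269 for TEAD and 23 for YAP. The last was 56555 bp upstream of Ugp2, with 244 and 23.

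Whether a TEAD peak carried a YAP peak went with its own height. In the lowest decile of TEAD pileup, 16 to 22 fragments, 10 of 4926 peaks were paired (0.203%, 0.110 to 0.373), and outside the YAP-dense domains 1 of 4916 was (0.0203%). The share stayed under 0.4% up to a pileup of 47, and was 1.12% at 48 to 60 (0.833 to 1.51), 3.89% at 61 to 87 (3.32 to 4.56) and 29.8% at 88 to 410 (28.4 to 31.3). Outside the domains the last 3 shares were 1.02%, 3.81% and 29.7%. Among the 100 TEAD peaks with the highest pileup 84 were paired, and among the highest 1000 582 were (58.2%, 55.1 to 61.2). The 5 highest of all were unpaired peaks on the mitochondrial sequence, with folds of 1.42 to 1.44. The lowest YAP pileup in the list was 18, so a TEAD peak without a YAP peak is a site where YAP was not called at this depth, not a site shown to lack YAP.

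**Figure D3:**
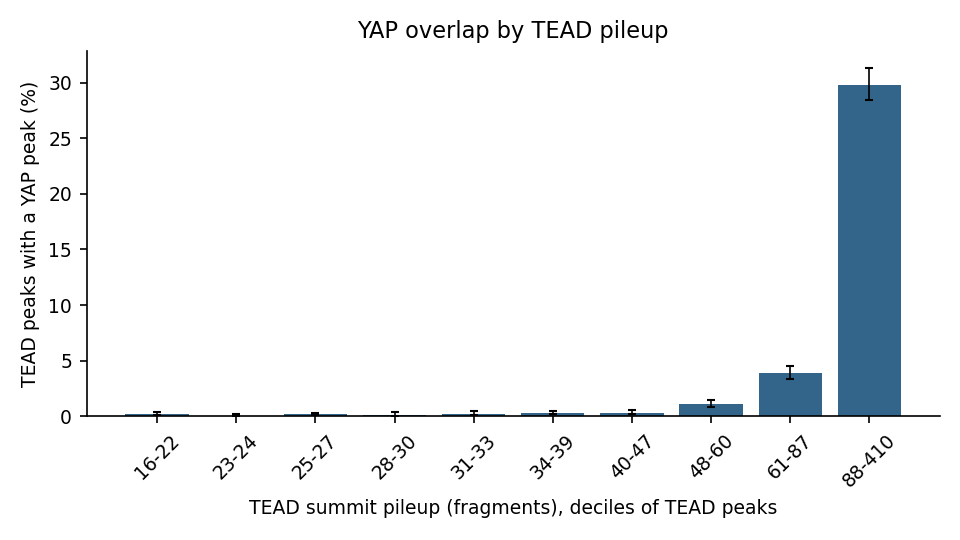
Share of TEAD peaks that overlap a YAP peak (vertical axis, %) by decile of TEAD summit pileup (horizontal axis, fragments; ties kept together), with 95% Wilson intervals. The share is 29.8% in the highest decile and 3.89% in the next, and at most 1.12% below.

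Since height and pairing went together, each comparison of paired with TEAD-only peaks below was also made within the top 10% of TEAD peaks by pileup, those of at least 87 fragments. This does not hold height equal. The paired share still rose within the top 10%, to 58.2% of the highest 1000 and 84.0% of the highest 100, and the part of height in the differences there was not tested. Paired peaks lay less often at promoters, from 2000 bp upstream to 1000 bp downstream of a transcription start. They did so in 270 of 1394 cases (19.4%, 17.4 to 21.5), against 11090 of 37552 TEAD-only peaks (29.5%, 29.1 to 30.0). The difference was -10.2 percentage points (-12.2 to -7.96), and -6.69 points (-9.40 to -3.84) in the top 10%. Intergenic sequence held 38.5% of paired and 30.8% of TEAD-only peaks, a difference of 7.68 points (5.12 to 10.3), and gene bodies held 42.1% and 39.6%, a difference of 2.48 points whose interval includes 0 (-0.135 to 5.13). In the top 10% these differences were 5.01 points (1.69 to 8.36) and 1.68 points (-1.68 to 5.07).

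The difference was also seen close to the start. Paired summits lay within 100 bp of a coding start in 3.30% of cases (2.48 to 4.37) and TEAD-only summits in 8.17% (7.90 to 8.45), and in the top 10% the shares were 2.95% (2.12 to 4.10) and 6.68% (5.81 to 7.67). The median distance to the nearest coding start was 15.7 kb (14.3 to 17.2) for paired and 9.58 kb (9.32 to 9.84) for TEAD-only peaks, and 16.6 kb (15.1 to 18.9) against 11.6 kb (10.5 to 13.0) in the top 10%. Outside the domains the next TEAD summit lay within 2000 bp of 27.0% of paired (24.7 to 29.4) and 30.7% of TEAD-only peaks (30.3 to 31.2). In the top 10% these shares were 27.6% (25 to 30.2) and 29.7% (28.1 to 31.5), with intervals that overlap, and the median distance to the next TEAD summit over all peaks was 5.20 kb (4.59 to 5.65) for paired and 5.12 kb (5.0 to 5.23) for TEAD-only peaks.

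The TEAD core was searched as GGAATG on both strands within 100 bp of each TEAD summit. It was found at 923 of 1394 paired peaks (66.2%, 63.7 to 68.6) and 12793 of 37552 TEAD-only peaks (34.1%, 33.6 to 34.5), and at 35.2% of all TEAD peaks. In windows of the same length 2000 bp away the shares were 10.5% and 10.6%. The difference was 32.1 points (29.6 to 34.6) over all peaks and 11.2 points (7.89 to 14.3) in the top 10%, where the shares were 69.4% and 58.2%. At promoters of the top 10% the core was found at 68.2% of paired (61.7 to 74.0) and 57.9% of TEAD-only peaks (54.2 to 61.4).

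Copy number of the core followed the same order. In the top 10% of TEAD peaks, 23.4% of those with no copy were paired (21.3 to 25.6, n = 1511), 29.6% with 1 copy (27.6 to 31.7, n = 1910), 43.3% with 2 copies (38.7 to 48.0, n = 432) and 66.7% with 3 or more (54.9 to 76.6, n = 69). A pair of copies on the same strand with 3 bp between them, GGAATGNNNGGAATG, were found at 34 of 1394 paired peaks (2.44%, 1.75 to 3.39) and 59 of 37552 TEAD-only peaks (0.157%, 0.122 to 0.203). In the top 10% the counts were 31 of 1152 (2.69%, 1.90 to 3.79) and 13 of 2770 (0.469%, 0.274 to 0.801), and 2000 bp away 0 of 1394 paired windows held the arrangement (Wilson upper limit 0.275%). The Ctgf promoter window printed above holds it.

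The core lay closer to the TEAD summit than to the YAP summit. Over the 659 pairs outside the domains with exactly 1 copy within 100 bp of the TEAD summit, the median distance to the centre of the core was 14.5 bp from the TEAD summit (12.5 to 15.5) and 36.5 bp from the YAP summit (32.5 to 38.5). The search window was centred on the TEAD summit, which limits the first distance more than the second. YAP summits also rested on fewer fragments, with a median pileup over all pairs of 28.0 against 135, and on a longer read extension. The part of these in the distances was not tested. The TEAD summit was the nearer in 481 pairs (73.0%). Along the strand of the core the YAP summit had a median offset of 1.5 bp (-2.5 to 5.5).

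Elements of other factors were searched in the same windows. Their letters, on both strands, were TGANTCA for AP-1, AAAGTCCA for HNF4, TGTTTNC for FOXA, TTGCNNAA for C/EBP, GGGCGG for SP and KLF factors and CCGGAAG for ETS factors, and the ETS letters share GGAA with the TEAD core. FOXA proteins and C/EBP proteins are liver factors, and their letters were found somewhat more often at paired peaks. FOXA letters were at 27.3% of paired and 21.9% of TEAD-only peaks, with 5.06 points between them in the top 10% (2.10 to 8.12), and C/EBP letters at 19.3% and 14.8%, with 4.11 points (1.56 to 6.79). SP and KLF letters, common in CpG-rich promoters, were less frequent at paired peaks, 6.17% against 11.6%, and at promoters of the top 10% they were at 13.8% of paired (9.86 to 19.0) and 29.7% of TEAD-only peaks (26.5 to 33.2), a wider gap than that of the TEAD core in the same peaks. Away from promoters this order was not seen: over all TEAD peaks the shares were 5.11% (3.6 to 7.20) and 3.70% (3.41 to 4.02) in gene bodies and 4.47% (3.02 to 6.56) and 4.58% (4.21 to 4.97) in intergenic sequence. The differences for AP-1 and HNF4 in the top 10% were -0.552 points (-2.54 to 1.59) and -0.514 points (-1.63 to 0.787), with intervals that include 0, and over all TEAD peaks they were 1.76 points (0.235 to 3.49) and 0.224 points (-0.602 to 1.30). ETS letters differed by -1.64 points over all TEAD peaks (-2.21 to -0.823) and by -0.589 points in the top 10% (-1.45 to 0.446). The shares over all TEAD peaks were 8.71% for AP-1, 3.01% for HNF4, 22.1% for FOXA, 14.9% for C/EBP, 11.4% for SP and KLF and 3.16% for ETS.

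**Figure D4:**
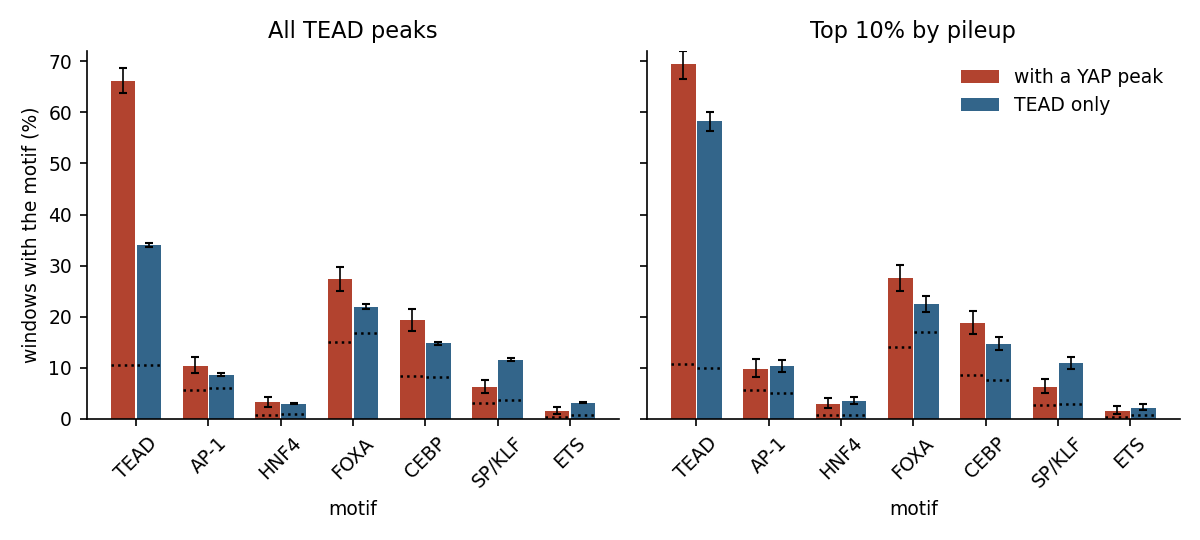
Share of windows within 100 bp of the TEAD summit that hold each motif (vertical axis, %) for TEAD peaks with a YAP peak (red) and TEAD only (blue), for all TEAD peaks (left) and the top 10% by pileup (right), with 95% Wilson intervals and dotted lines at the share in windows 2000 bp away. The TEAD core has the highest share of both classes, 66.2% and 34.1% on the left and 69.4% and 58.2% on the right.

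TEAD pileup scaled to library size at 7 days was also set against that of the list at 3 days, which the caller made with a fragment length of 207 bp. Outside the domains, 92.4% of paired (90.9 to 93.7) and 70.4% of TEAD-only peaks (70.0 to 70.9) overlapped a TEAD peak at 3 days, and in the top 10% the shares were 94.4% (92.9 to 95.6) and 94.6% (93.7 to 95.4), with intervals that overlap. Where they did, the median ratio of 7 to 3 days was 1.69 (1.65 to 1.75) for paired and 1.31 (1.31 to 1.32) for TEAD-only peaks. In the top 10% the ratios were 1.72 (1.66 to 1.76) and 1.66 (1.63 to 1.69), with intervals that overlap. The 7-day TEAD pileup enters the ratio, goes with pairing and defines the top 10%. The ratios are therefore not independent of how the classes were formed, and no gain of TEAD at paired sites can be read from them.

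The 5 TEAD peaks with the highest pileup and no YAP peak all lay on the mitochondrial sequence, with pileups of 406 to 410 and folds of 1.42 to 1.44. On placed nuclear chromosomes, most of the highest by pileup lay on chromosome 17 between 39980264 and 39984883, with Pgk2 the nearest coding gene. Their windows of 81 bases hold no core. Another had Cry2 as the nearest coding gene, and its window holds 1. Ranked by fold on placed nuclear chromosomes instead, a choice made after the values were seen, the first 5 were all at promoters. They were those of Plekhg2, with a pileup of 256 and a fold of 60.32, Arf2, with 251 and 59.15, Large, with 247 and 58.2, Grn, with 246 and 57.97, and Tmco4, also with 246 and 57.97. The Tspan4 pair named above had the same TEAD pileup and fold as the Plekhg2 peak. Windows of 81 bases at 3 of the 5 ranked by fold are shown for comparison with the paired sites. Those of Plekhg2 and Large hold 1 core each and that of Arf2 holds none. The other windows ranked by fold hold 2 cores at Grn and 1 at Tmco4.
Plekhg2 promoter, chr7:29157790-29157870: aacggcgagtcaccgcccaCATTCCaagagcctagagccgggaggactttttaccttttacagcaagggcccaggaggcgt
Arf2 promoter, chr11:103827660-103827740: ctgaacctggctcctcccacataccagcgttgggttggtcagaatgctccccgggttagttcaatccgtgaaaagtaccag
Large promoter, chr8:75877506-75877586: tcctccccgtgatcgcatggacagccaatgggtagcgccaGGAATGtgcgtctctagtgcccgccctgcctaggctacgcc

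YAP peaks without TEAD numbered 71, of which 58 lay in the domains and 13 outside. The 3 with the highest pileup, 259 to 327, lay on unplaced sequence with folds of 1.43 to 1.9. The next lay 33893 bp from the start of Sfi1, with a pileup of 63 and a fold of 2.69. After it came a peak 4403 bp from the start of Tmem125, with 62 and 3.21. Of the 13 outside the domains, 5 overlapped a YAP peak of WT livers, 4 lay on unplaced sequence, and 2 lay at the promoter of Coil, with folds of 6.55 and 5.46. None had a TEAD summit within 1000 bp. The median fold of the 13 was 3.21, against 5.89 for paired YAP peaks.

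Genes were then classed by the peaks whose summits lay within 20 kb of a start. Of 22367 protein-coding genes, 1008 had a paired site (4.51%, 4.24 to 4.79), 12591 had TEAD but no paired site (56.3%, 55.6 to 56.9) and 8768 had no TEAD peak (39.2%). In the promoter itself, 222 genes had a paired site (0.993%, 0.871 to 1.13). Without the domains 1000 genes had a paired site, of which 936 had 1, 51 had 2 and 13 had 3 or more.

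Genes with a paired site had more and higher TEAD peaks around them. The median was 4 TEAD peaks in the window against 2 for TEAD-only genes, and the highest TEAD peak had a median pileup of 144 against 45. The share of genes with a paired site was 1.88% with 1 TEAD peak in the window (1.52 to 2.32), 8.65% with 3 to 4 (7.77 to 9.62) and 32.8% with 10 or more (27.5 to 38.7). Of the TEAD-only genes, 2044 had a TEAD peak in the top 10% by pileup.

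The genes with most paired sites were those of the chromosome 1 domain. Trpm8, the gene of a cold-sensing channel, had 28 paired sites, Heatr7b1 had 21, Hjurp, which encodes a centromere chaperone, had 19, Ugt1a1, the gene of the enzyme that conjugates bilirubin, had 10 and Dnajb3 had 9. Outside the domains Amotl2, which encodes an angiomotin family protein that binds YAP, had most, with 4 of its 12 TEAD peaks paired. Among the genes with 3 were Alb and Ccnd1, which encodes cyclin D1.

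The genes with most TEAD peaks and none paired were Sik3, a salt-inducible kinase gene, with 20, Mtus1 and Pxn, the gene of the focal adhesion protein paxillin, with 19 each, Arid5b with 18 and Actn4, which encodes an actin crosslinker, with 17, tied with Arhgap26 and Itsn1. The highest TEAD pileup in these windows was 171 for Sik3, 202 for Arid5b and 79 for Mtus1.

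Genes of 15 lists were read the same way, against 4.51% with a paired site and 56.3% with TEAD only over all protein-coding genes. The lists were short, and their members can differ from other genes in how many TEAD peaks surround them. In a signature of YAP target genes 5 of 22 had a paired site (22.7%, 10.1 to 43.4) and 12 had TEAD only. Ctgf, which encodes a secreted matricellular protein and is a standard YAP target, had its pair 58 bp upstream of the start, with a TEAD pileup of 253 and a YAP pileup of 48 and summits 46 bp apart. Amotl2 had a pair 13 bp downstream of its start, with 253 for TEAD and 49 for YAP and summits 3 bp apart. Ptpn14, the gene of a phosphatase that restrains YAP, had a pair 281 bp upstream, with 152 and 24. The other two were Nuak2, with 204 and 38 at 6290 bp downstream, and F3, the tissue factor gene, with 53 and 30.

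Other known targets had TEAD without a called YAP peak. Cyr61 had 4 TEAD peaks up to a pileup of 155, Ankrd1 had 7 up to 96, and Lats2, which encodes a Hippo kinase, had 7 up to 175. In the family of TEAD, YAP and VGLL genes 2 of 10 had a paired site. Wwtr1, the gene of the YAP paralog TAZ, had a pair 293 bp upstream with a TEAD pileup of 64 and a YAP pileup of 28, and Vgll4, which encodes a competitor of YAP for TEAD, had 3 pairs in its introns with TEAD pileups of 272, 280 and 97 and YAP pileups of 45, 37 and 28. Tead1, with TEAD pileups up to 81, Tead4, with up to 233, and Yap1, with up to 109, had TEAD only. Among Hippo kinases and upstream regulators 3 of 18 had a paired site (16.7%, 5.84 to 39.2). They were Wwc1, Ptpn14 and Wwc2, which encodes a KIBRA family protein and had a promoter pair with a TEAD pileup of 181 and a YAP pileup of 55.

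AP-1 factors and genes of the cytoskeleton and junctions had the largest shares of the 15 lists. Of the AP-1 genes 4 of 10 had a paired site (40%, 16.8 to 68.7), namely Fos, Fosl2, Junb and Atf3. At Atf3, a stress-induced factor, the pair lay 262 bp upstream with a TEAD pileup of 121 and a YAP pileup of 27, and that at Junb lay 18645 bp from its start, on an exon of the neighbouring gene Rnaseh2a. Of the cytoskeleton and junction genes 8 of 21 had one (38.1%, 20.8 to 59.1). Tln1, which encodes the integrin activator talin, had a promoter pair with 178 for TEAD and 62 for YAP. Myh9, the gene of a nonmuscle myosin, had one with 267 and 33, and Itgb5, an integrin gene, one with 183 and 22. Krt8 and Krt18 share a site that lies in both windows, and Krt18 had a further pair 2464 bp upstream with 187 and 42.

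**Figure D5:**
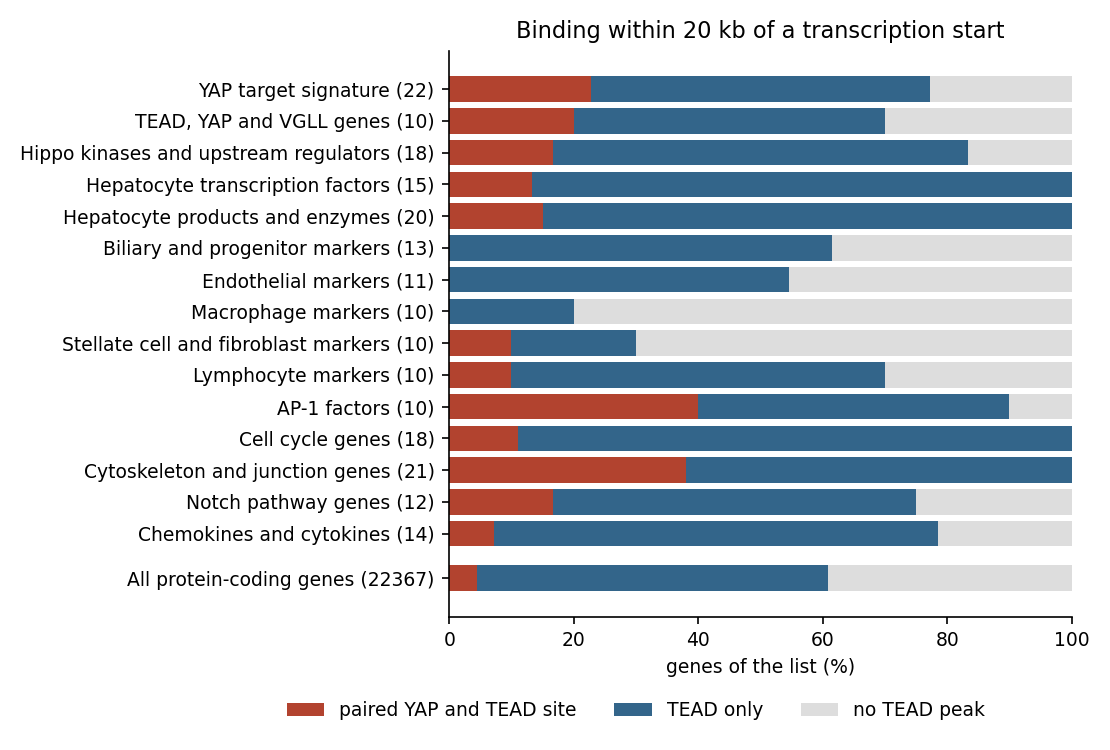
Share of the genes of each list (horizontal axis, %) with a paired YAP and TEAD site within 20 kb of a start (red), with TEAD only (blue) and with no TEAD peak (grey), with the number of genes in brackets and all 22367 protein-coding genes in the bottom bar. The red share is 40% for AP-1 factors and 38.1% for cytoskeleton and junction genes, against 4.51% over all genes.

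Every hepatocyte gene of the lists had TEAD nearby, as did every gene of the cell cycle list and of the cytoskeleton and junction list. Over all protein-coding genes, 39.2% had no TEAD peak in the window. Against 4.51% of all genes, 13.3% of hepatocyte transcription factors had a paired site (3.74 to 37.9). The share was 15.0% for hepatocyte products and enzymes (5.24 to 36.0). It was 11.1% for cell cycle genes (3.10 to 32.8) and 16.7% for Notch pathway genes (4.70 to 44.8). The intervals for hepatocyte transcription factors and cell cycle genes include 4.51%. Of the hepatocyte transcription factors 2 of 15 had a paired site, Nr1h4, the bile acid receptor gene, with a TEAD pileup of 168 and a YAP pileup of 24, and Nr0b2, a repressor downstream of it, with 93 and 24, and the other 13 had TEAD only. Hnf4a, a main regulator of hepatocyte identity, had 11 TEAD peaks up to a pileup of 78. Of the hepatocyte products and enzymes 3 of 20 had a paired site, Alb, G6pc and Pck1, of which the latter pair encode enzymes of glucose production, and 17 had TEAD only, among them Apoa1, with 9 TEAD peaks up to 55. Of the cell cycle genes 2 of 18 had one. Ccnd1 had 3 pairs, of which that 1879 bp upstream had a TEAD pileup of 101 and a YAP pileup of 30, and Mcm5, a replicative helicase gene, had a pair 19886 bp upstream with 259 and 51. Of the Notch pathway genes 2 of 12 had one, Notch2, with a pair 619 bp downstream of the start and pileups of 140 and 25, and Notch1, with 234 and 28.

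The shares of genes marking other liver cells that were near a paired site did not differ from that of all genes beyond their intervals. None of 13 biliary and progenitor markers had one (Wilson upper limit 22.8%). The bile duct keratin genes Krt7 and Krt19 had no TEAD peak, and Sox9, with a highest TEAD pileup of 34, and Spp1, with 35, had TEAD only. None of 11 endothelial markers (upper limit 25.9%) or 10 macrophage markers (upper limit 27.8%) had one, and Pecam1, Cdh5, Clec4f and Emr1 had no TEAD peak at all. Among stellate cell and fibroblast markers 1 of 10 had a paired site (Wilson interval 1.79 to 40.4%). This was Acta2, with a TEAD pileup of 66 and a YAP pileup of 26. Among lymphocyte markers 1 of 10 had one (1.79 to 40.4%), Nkg7, with 103 and 24. Among chemokines and cytokines 1 of 14 had one (1.27 to 31.5%), Cxcl10, with 178 and 30 in an intron of Art3. The chemokine gene Ccl2 and Csf1, a macrophage growth factor gene, had TEAD only, with pileups up to 100 and 118. With lists of this length, the intervals of all 6 shares include the 4.51% of all genes.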

How the data were processed

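ChIP-seq peak lists of YAP and TEAD at 7 days were analysed. Per the study's methods and the file headers, the authors masked low-quality bases, aligned reads to mm9 with BWA 0.6.2, merged the replicates, removed duplicates and called peaks with MACS2 2.0.9 at a p-value cutoff of 1e-05 against 1 published control of 167176362 tags. The pileup deposited for each peak is a signal that counts the fragments covering its summit after extension. The deposited fold enrichment is the ratio of pileup to local background, and the authors' −log10 p-values and −log10 q-values rank peaks within a list. Here peaks were paired by overlap of at least 1 bp, located with GENCODE for NCBIM37 (the mm9 assembly), and searched for motifs (Python 3.11.15, pandas 2.3.3, scipy 1.17.1, pysam 0.24.0). A peak overlapping a promoter was called promoter, otherwise gene body, otherwise intergenic, and genes were assigned by summits. On 21 chromosomes all peak ends lay within the reference. Peaks on unplaced and mitochondrial sequence were left out where annotation was needed.

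Shares have Wilson intervals, differences of shares Newcombe intervals, medians order-statistic intervals and correlations Fisher intervals, all at 95%. The code was tested on simulated data. The text names the 5 pairs with the highest pileup of each protein, the 5 highest unpaired peaks of each list, the 3 pairs that differ most in rank in each direction, the 5 genes with most paired sites and the 5 with most TEAD peaks and none paired, and members of 15 lists, first those with a promoter pair. Other members of the lists, and sites ranked without the domains or by fold, were chosen after their values were seen. The lists, the domains and the comparisons were chosen with earlier results of these data known.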

Additional observations from a re-analysis of the deposited data

How the results depend on the processing

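Of 56 alternative values, 28 stayed within the interval of the value reported and 28 moved outside it. Only the rank correlation, the promoter difference and the TEAD core difference could change direction, and none did. Shares and median distances cannot change sign. Pairing only summits at most 100 bp apart gave 82.7% of YAP and 3.14% of TEAD peaks paired, a median distance of 28.0 bp, a rank correlation of 0.49 and 4.0% of genes with a paired site. A −log10 p-value of at least 10 gave 96.8%, 3.31%, 30.0 bp, 3.69% of genes paired and 53.3% with TEAD only, and a fold enrichment of at least 5 gave 97.7%, 3.26%, 30.0 bp, a correlation of 0.49, 3.70% and 53.8%. Without the YAP-dense domains the share of YAP peaks paired was 99.1% and the correlation 0.50, and ranking fold enrichment in place of pileup also gave 0.50. In the top 10% of TEAD peaks the promoter difference was -6.69 points and the TEAD core difference 11.2 points. The longer letters GGAATGT gave a difference of 25.6 points. Genes with a paired site and with TEAD only were 0.993% and 35.9% in promoters, 9.23% and 64.8% in windows of 50000 bp, and 5.39% and 50.3% by the nearest start.

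No paired analysis was possible because each list was called on merged replicates, and for the same reason no replicate was left out. The YAP and TEAD libraries differed in crosslinking and antibody, so the lower number and pileup of YAP peaks cannot be told apart from the efficiency of the immunoprecipitation. The effect of depth on either list was not tested.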
